A study of Mus musculus with 21 samples.

Results

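The 37 genes followed here are known markers of microglia and other macrophages, read on gene expression arrays of the mouse dentate gyrus, the part of the hippocampus that holds the granule cells. They were listed by symbol as cell type markers, by a rule that uses no value of these arrays, although earlier results of these data were known when the list was made. Of the 37, 36 had a probe set under their symbol in the annotation used, and 1 was not analysed here. Where a gene had several probe sets, the brightest by mean stood for it. In 29 of the 36 that probe set lay among the upper 60% by mean, and these 29 were tested together with all other genes that passed this filter, 12499 in all out of 18193 genes with a probe set. The other 7 are given as levels only.

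Microglia are the resident macrophages of the brain tissue. They depend on the growth factor receptor *Csf1r* for survival, survey the tissue with receptors for nucleotides (*P2ry12*, *P2ry13*) and for the neuronal chemokine fractalkine (*Cx3cr1*), and are the main source of the complement protein C1q in the brain. When they meet damage or dying cells, they are known to lower these surveillance genes and to raise genes of phagocytosis, lysosomes and lipid handling. Macrophages at the borders of the brain and blood monocytes express many of the same genes.

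The mice carried a transgene for NgR, the Nogo receptor encoded by *Rtn4r*, which tTA (a transactivator) switches on and doxycycline keeps off. It comprised 21 arrays of total RNA in 7 groups of 3. In set 1, bitransgenic mice whose doxycycline had been removed, and which drank water, were compared with bitransgenic mice kept on doxycycline in the diet. Monotransgenic mice on water, which lacked tTA, were the other group of the set, and their labels also give doxycycline as removed. In experiment 2, bitransgenic mice on water that had never met doxycycline were compared with monotransgenic mice on water. In set 3, bitransgenic mice were compared with monotransgenic mice, and the labels give no treatment. The titles of set 3 share the prefix 1217 between monotransgenic replicate 2 and bitransgenic replicate 1, and 1215 between replicate 3 of both groups, without saying what a prefix stands for. No group was wild type, and the labels give no strain, age, sex or promoter for tTA. The labels do not tie each sample to an animal of its own, and the p-values therefore reflect only how far these samples spread, which may be technical. The removed and diet groups of set 1 were compared with the same 3 monotransgenic arrays, and those 3 comparisons therefore share arrays.

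*Rtn4r* read 254 to 1469 on the 9 arrays with the transgene on, 73.1 to 111 on the 3 diet arrays and 63.8 to 185 on the 9 monotransgenic arrays, without overlap between on and off. The granule cell markers *Prox1* (318 to 951), *C1ql3* (3079 to 6229) and *Calb1* (3755 to 7492) were read on every array. A further one, *C1ql2*, varied more (135 to 1234), with 136, 442 and 1234 on the monotransgenic arrays of experiment 2. *Xist*, the RNA of the inactive X chromosome, read 2361 to 4750 on the 6 arrays of experiment 2 and 9.59 to 33.7 on the other 15, and the Y-linked *Eif2s3y* read 0.316 to 9.84 on those 6 and 395 to 680 on the others. Sets 1 and 3 thus share this signal, and sex cannot be told apart from set in any comparison of experiment 2 with another set. The log2 ratio of the 3′ to the 5′ actin control probe set, which is high in degraded or short RNA, was 4.84 to 6.45 in experiment 2 and 4.17 to 5.12 elsewhere. Its highest values were 6.45 on replicate 2 of the bitransgenic arrays and 5.97 on replicate 1 of the monotransgenic arrays of experiment 2.

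Many macrophage genes are controlled by the transcription factor PU.1, which binds purine-rich elements with a GGAA core, alone or together with the interferon regulatory factor encoded by *Irf8*. The RefSeq promoter windows (build GRCm38.p6, 250 bases before to 50 bases after the start) of 4 members are shown because the results below turn on *Laptm5* and *C1qb*, because *C1qc* lies next to *C1qb* on chromosome 4 and is a chain of the same protein, and because *Ctss* was read far above the array median on every array. Each runs 5′ to 3′ on the strand of its gene, and capitals mark the element GAGGAA or its reverse complement TTCCTC. The windows are chr3:95526536-95526835 on the plus strand for *Ctss*, chr4:130913066-130913365 on the plus strand for *Laptm5*, chr4:136886151-136886450 on the minus strand for *C1qb* and chr4:136892865-136893164 on the minus strand for *C1qc*.
Ctss: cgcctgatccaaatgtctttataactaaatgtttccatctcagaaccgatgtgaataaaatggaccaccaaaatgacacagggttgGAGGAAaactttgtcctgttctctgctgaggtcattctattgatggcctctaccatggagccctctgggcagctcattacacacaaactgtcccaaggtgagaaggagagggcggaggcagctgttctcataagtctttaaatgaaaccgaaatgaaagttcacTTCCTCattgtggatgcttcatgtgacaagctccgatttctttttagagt
Laptm5: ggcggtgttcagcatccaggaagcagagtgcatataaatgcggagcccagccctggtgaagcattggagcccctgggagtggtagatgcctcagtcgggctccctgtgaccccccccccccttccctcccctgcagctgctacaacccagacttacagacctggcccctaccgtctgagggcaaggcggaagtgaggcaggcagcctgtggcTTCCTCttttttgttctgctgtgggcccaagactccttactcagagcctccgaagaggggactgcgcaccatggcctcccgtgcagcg
C1qb: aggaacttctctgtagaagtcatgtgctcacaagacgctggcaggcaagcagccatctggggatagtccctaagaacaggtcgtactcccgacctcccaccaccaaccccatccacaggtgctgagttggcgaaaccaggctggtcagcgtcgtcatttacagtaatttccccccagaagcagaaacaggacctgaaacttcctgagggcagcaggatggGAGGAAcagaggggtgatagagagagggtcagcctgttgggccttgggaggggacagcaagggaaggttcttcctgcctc
C1qc: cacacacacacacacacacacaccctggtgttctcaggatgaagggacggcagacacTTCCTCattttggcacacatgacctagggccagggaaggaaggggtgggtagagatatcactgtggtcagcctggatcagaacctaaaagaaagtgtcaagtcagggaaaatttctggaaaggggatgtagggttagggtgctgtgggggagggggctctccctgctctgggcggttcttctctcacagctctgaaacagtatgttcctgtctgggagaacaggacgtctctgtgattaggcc

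The *Ctss* window held 2 copies of GAGGAA and the other 3 windows held 1 each. Counting both strands, this element was found in 18 of 33 windows of members (54.5%, 16 of the 29 genes with a window), against 9289 of 32851 windows of 300 bases of all genes (28.3%). These 29 genes are not the 29 tested members. They include *Ccl3*, *Cst7*, *Itgam*, *Itgax* and *Trem2*, which were not tested. The tested *Csf1r*, *C1qa*, *Tyrobp*, *Tmem119* and *Ccl4* had no window. The composite element of PU.1 and the interferon regulatory factors (GGAA, any 2 bases, then GAAA, on both strands) was found in 3 of the 33 windows (9.09%, in *Cd68* and *Clec7a*), against 2.72% of all windows, and in none of the 4 shown. The 2 elements can overlap. A match describes the letters and does not show that a factor was bound.

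Values are deposited intensities, linear and scaled alike on all arrays, and the median over all probe sets of an array was 20.6 to 29.01. 7 members stood above that median on all 21 arrays. They were *Ctss*, a lysosomal cysteine protease (956 to 1985), *Csf1r*, the survival receptor (579 to 1521), *Laptm5*, a lysosomal membrane protein of blood-derived cells (224 to 460), *C1qb*, a chain of C1q (50.7 to 315), *Ly86*, the partner of a Toll-like receptor homologue (39.2 to 137), the fractalkine receptor *Cx3cr1* (21.4 to 67.9) and the tetraspanin *Cd53* (26.7 to 44.2). At the other end, 17 of the 36 were above the array median on no more than 10 arrays. A probe set's signal also depends on how well it hybridises, so these levels do not rank the genes by abundance.

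The 7 members under the filter read low throughout. The integrin *Itgam* read 0.398 to 13.0, the lipid receptor *Trem2* 0.889 to 12.0, the chemokine *Ccl3* 0.959 to 8.40 and the cathepsin inhibitor *Cst7* 0.604 to 16.6. The lipopolysaccharide co-receptor *Cd14* read 1.45 to 25.0, the integrin *Itgax* 1.22 to 25.6 and the surface glycoprotein *Cd52* 1.79 to 26.6. *Trem2*, *Itgax* and *Cst7* are genes that rise in activated microglia in the mouse, and no comparison is made for them here.

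**Figure D1:**
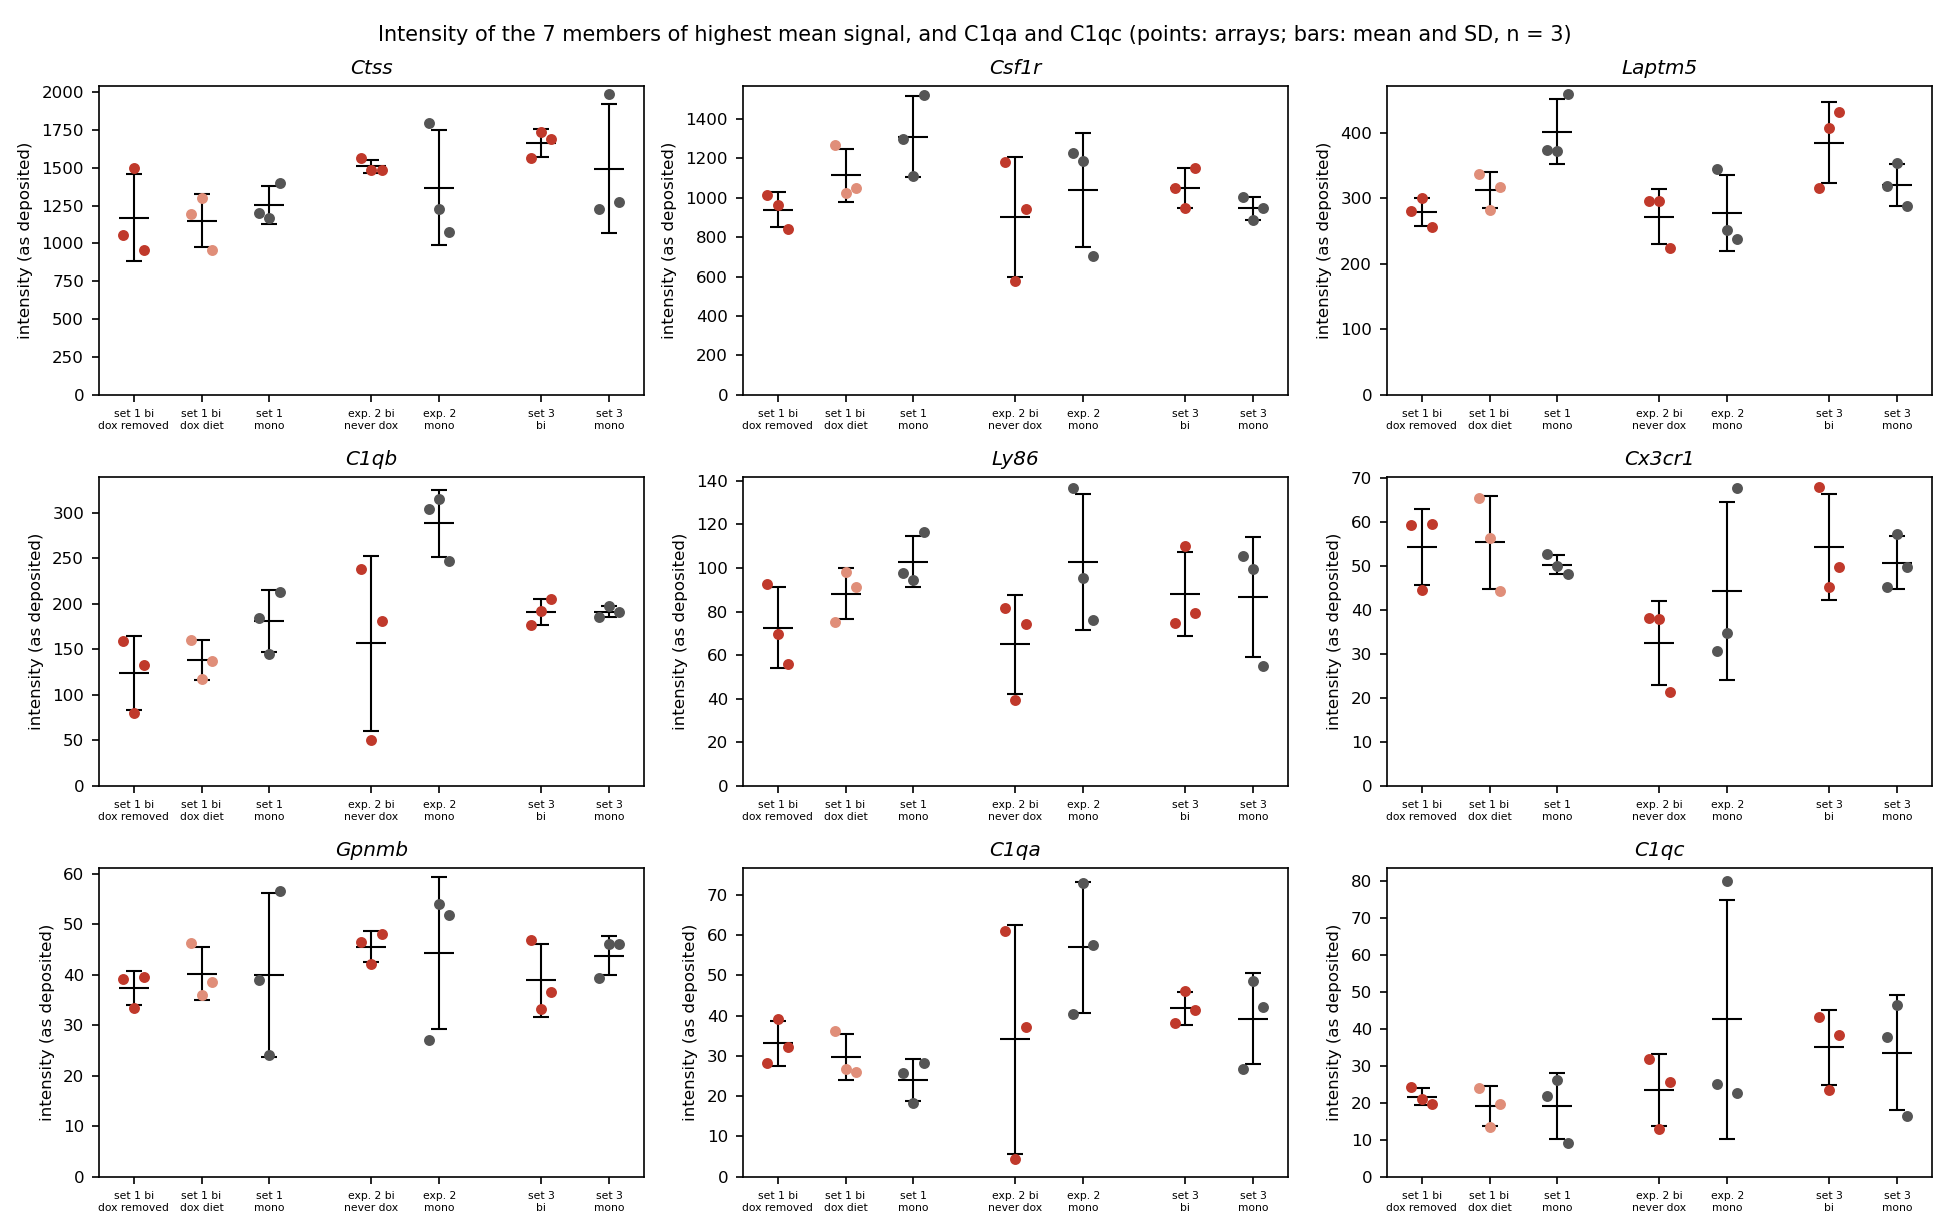
Deposited intensity (linear axis from 0) on each array for the 7 members of highest mean signal and for *C1qa* and *C1qc*, by group, with the mean and SD of 3 arrays. *Laptm5* and *Csf1r* were lower on the 3 doxycycline-removed arrays than on the 3 monotransgenic arrays of set 1, and *C1qb* was lowest, at 50.7, on 1 bitransgenic array of experiment 2.

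No member passed the test in any comparison. The test was a limma fit over all 21 arrays with Benjamini-Hochberg adjustment over the 12499 genes and a threshold of 0.05. Adjusted calls were also rare over all genes. They made up 0.032% in the doxycycline-removed against the diet group, 0.072% in removed against monotransgenic, 0.024% in diet against monotransgenic, 0.096% in experiment 2, 0% in set 3 and 0.072% for the mean of the 3 differences with the transgene on. In whole tissue, fewer cells of a type and less RNA per cell cannot be told apart, and this holds for every difference below.

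At an unadjusted p under 0.05, 1 of the 29 members stood out in removed against diet (5.06% of all genes), 3 in removed against monotransgenic (7.85%) and 3 in diet against monotransgenic (3.85%). There were 6 in experiment 2 (14.4%), 1 in set 3 (4.19%) and 4 for the mean of the 3 sets (11.8%). The 3 arrays of each group did not overlap, after normalization, for 5 members in removed against diet (16.2% of all genes), 8 in removed against monotransgenic (22.2%) and 4 in diet against monotransgenic (14.8%). The corresponding counts were 6 in experiment 2 (8.69%) and 1 in set 3 (13.5%). These member counts lie on both sides of the share over all genes.

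The members also split in sign. They were higher in 14 of 29 in removed against diet (48.1% of all genes), 14 in removed against monotransgenic (47.7%), 11 in diet against monotransgenic (50%) and 12 in experiment 2 (52.1%). In set 3, 25 of 29 were higher in bitransgenic mice (56.8% of all genes), by a median of 0.10 log2, and for the mean of the 3 sets 14 were higher (51.7%). The set 3 arrays that share a title prefix did not lean alike. For prefix 1215, 21 of 29 members were higher on the bitransgenic array (53% of all genes, member median 0.28), and for prefix 1217, 11 were higher and 18 lower (55.4% of all genes higher, member median -0.15). A fit on these 2 pairs alone left 20 of 29 higher, with a median of 0.06. The median log2 difference of the members was -0.01 in removed against diet, -0.05 in removed against monotransgenic, -0.08 in diet against monotransgenic, -0.06 in experiment 2 and -0.02 for the mean of the 3 sets. Over all genes the medians were -0.01, -0.01, 0.00, 0.02 and 0.01 in the same order, and 0.03 in set 3.

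**Figure D2:**
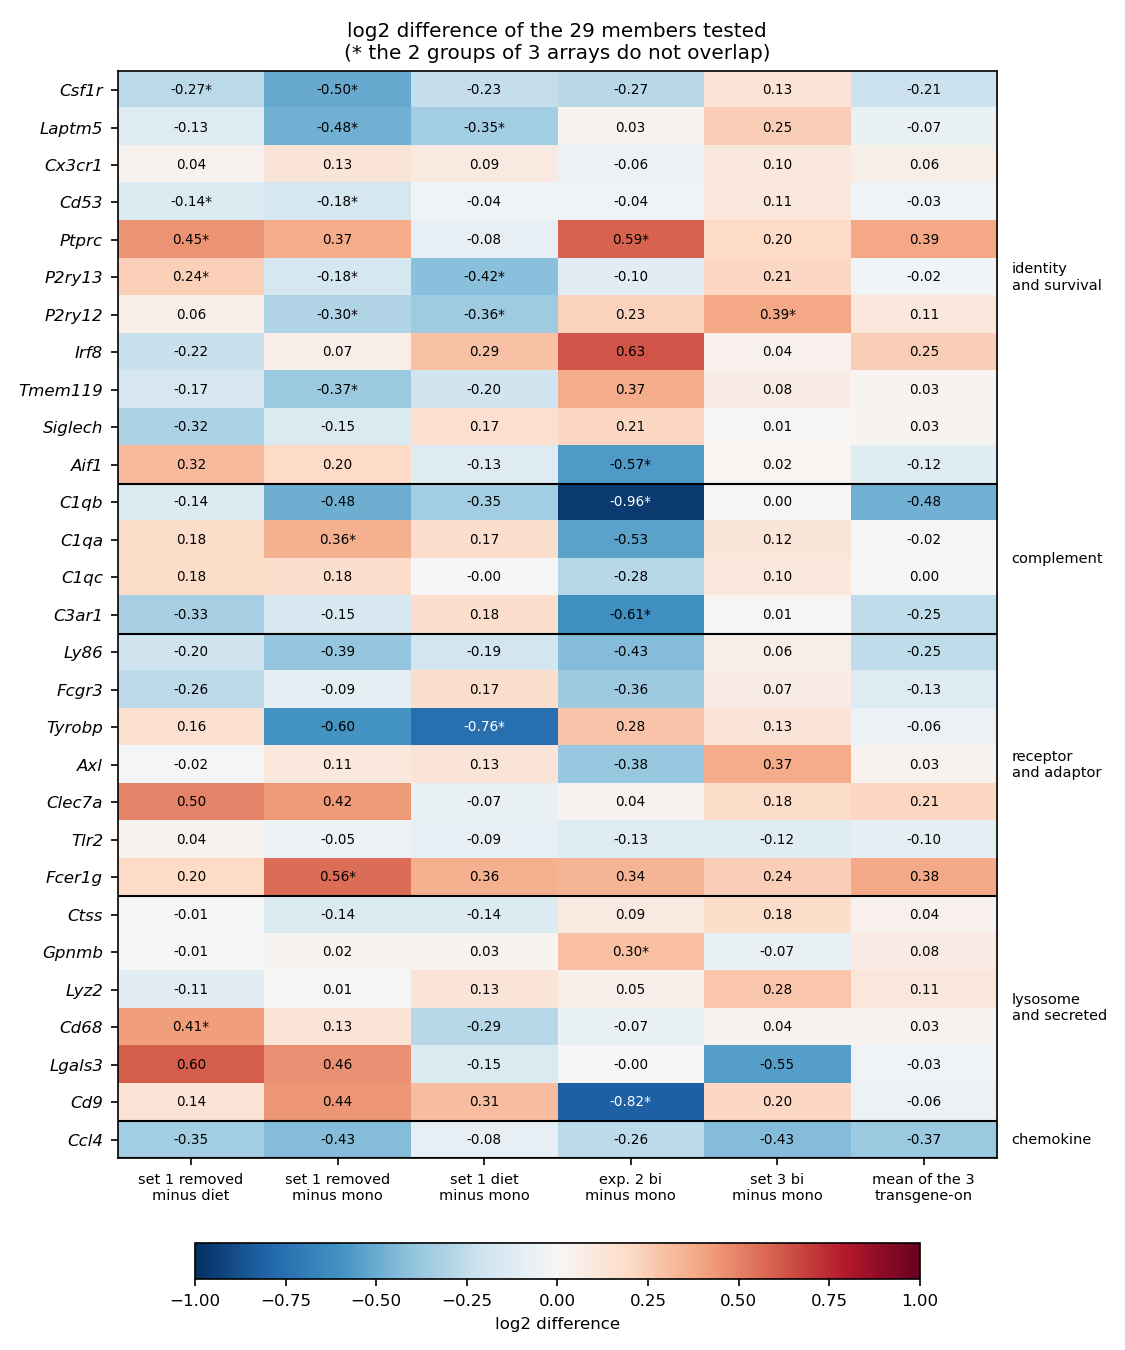
Log2 difference (first-named group minus second) of the 29 members tested, by role, in the 5 comparisons of groups and for the mean of the 3 sets with the transgene on, with an asterisk where groups of 3 arrays do not overlap after normalization. The largest negative value is *C1qb* in experiment 2 (-0.96), no value passed the test, and set 3 shows 25 of 29 positive values.

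The fit limits how large an unseen difference could be. Standard errors of the members ran from 0.14 to 0.35 log2 in comparisons of 3 arrays with 3, with a median of 0.24, and from 0.08 to 0.20 for the mean of the 3 sets. The 95% interval lay within 1 log2 unit of 0 for 27 of 29 members in removed against diet, 22 in removed against monotransgenic, 28 in diet against monotransgenic, 22 in experiment 2, 28 in set 3 and all 29 for the mean of the 3 sets. Since 16 was added before taking logs, log2 differences understate the change of dim genes.

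Among the 11 tested members of microglial identity and survival, the pair of lowest p in removed against monotransgenic was *Laptm5* and *Csf1r*. *Laptm5* read 281, 300.4 and 257 on the removed arrays and 337, 283 and 317 on the diet arrays, against 374, 372 and 460 on the monotransgenic arrays. On this probe set, the brightest, every removed and every diet array was below every monotransgenic array. The log2 difference was -0.48 ± 0.18 (SE) for removed against monotransgenic (adjusted p = 0.427) and -0.35 ± 0.18 for diet against monotransgenic (adjusted p = 1.00).

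*Csf1r*, the receptor for CSF1 and IL-34, read 1015, 965 and 841 on the removed arrays and 1266, 1024 and 1051 on the diet arrays, against 1300, 1109 and 1521 on the monotransgenic arrays. The removed arrays lay below all 6 others of the set, and the diet arrays overlapped the monotransgenic ones. The difference was -0.50 ± 0.22 for removed against monotransgenic (adjusted p = 0.554) and -0.27 ± 0.22 for removed against diet (adjusted p = 0.999).

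The purinergic receptors did not keep one direction across sets. *P2ry12*, which steers microglial processes towards ATP and ADP, read 28.3, 32.8 and 28.4 on the removed arrays and 24.8, 29.7 and 36.5 on the diet arrays of set 1, against 39.2, 40.5 and 46.3 on the monotransgenic arrays. All 6 bitransgenic arrays were thus below the 3 monotransgenic ones, by -0.30 ± 0.17 for removed (adjusted p = 0.7501) and by -0.36 ± 0.17 for diet (adjusted p = 1.00). In set 3 it read 38.1, 31.7 and 28.2 in bitransgenic mice, against 24.9, 17.8 and 20.6 in monotransgenic mice. There the bitransgenic arrays were all higher, by 0.39 ± 0.17 (adjusted p = 1.00). The difference between the sets (set 3 minus set 1, doxycycline removed) was 0.69 and did not pass (adjusted p = 0.999). In experiment 2 the groups overlapped, at 15.2, 27.4 and 16.5 in bitransgenic and 20.6, 18.7 and 15.5 in monotransgenic mice.

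*P2ry13*, a second receptor for ADP, read 22.3, 29.6 and 26.9 on the removed arrays and 23.0, 21.4 and 20.4 on the diet arrays, against 36.3, 29.6 and 32.5 on the monotransgenic arrays. The diet arrays were all below the monotransgenic ones, at -0.42 ± 0.18 (adjusted p = 1.00), and after normalization the removed arrays lay between. Set 3 had 29.8, 33.6 and 30.1 in bitransgenic mice, against 21.7, 30.9 and 24.2 in monotransgenic mice. Those groups overlapped, with a difference of 0.21 ± 0.18 (adjusted p = 1.00).

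*Ptprc*, which encodes the leukocyte phosphatase CD45, had the lowest p of any member for the mean of the 3 sets. It read 32.0, 40.6 and 35.6 on the removed arrays and 25.4, 24.9 and 22.8 on the diet arrays, against 18.3, 26.0 and 35.2 on the monotransgenic arrays of set 1. In experiment 2 it read 49.0, 45.7 and 33.9 in bitransgenic mice, against 34.1, 34.0 and 21.6 in monotransgenic mice. Set 3 had 34.4, 41.1 and 53.0 in bitransgenic mice, against 33.8, 56.8 and 22.4 in monotransgenic mice.

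The removed arrays of *Ptprc* were all above the diet arrays (0.45 ± 0.20, adjusted p = 0.935) and overlapped the monotransgenic arrays (0.37 ± 0.20, adjusted p = 0.723). In experiment 2 the groups separated after normalization and overlapped by 1 array in deposited intensity (0.59 ± 0.20, adjusted p = 0.221). Over the 3 sets the mean difference was 0.39 ± 0.12 (adjusted p = 0.153). The second probe set of *Ptprc* past the filter gave -0.47 in experiment 2 and -0.11 over the 3 sets, and with the mean of both the values were 0.06 (adjusted p = 0.905) and 0.14 (adjusted p = 0.646).

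*Irf8*, a transcription factor that microglia need, read 25.0, 20.5 and 33.9 in bitransgenic mice of experiment 2, against 6.10, 28.6 and 13.8 in monotransgenic mice. The groups overlapped, with a difference of 0.63 ± 0.21 (adjusted p = 0.218). *Aif1*, which encodes the microglial protein IBA1, read 8.41, 4.29 and 8.97 in bitransgenic mice of the same experiment, against 28.3, 16.8 and 22.9 in monotransgenic mice. All 3 bitransgenic arrays were lower, by -0.57 ± 0.25 (adjusted p = 0.312), and all lay below the median of their array. *Aif1* did not lean that way in set 1 (0.20 for removed against monotransgenic) or set 3 (0.02).

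Among the remaining identity members, *Cx3cr1* differed by -0.06 to 0.13 in all 5 comparisons of groups. *Cd53* was below the monotransgenic arrays on all 3 removed arrays, by -0.18, and *Tmem119*, a surface protein that sets microglia apart from other macrophages, by -0.37 (adjusted p = 0.864 and 0.808). In experiment 2 *Tmem119* leaned the other way, by 0.37 with overlap (adjusted p = 0.463), and the difference between those sets was 0.74 (experiment 2 minus set 1, adjusted p = 0.606). *Siglech*, a lectin of microglia, stayed between -0.32 and 0.21. In set 3 all 11 tested identity members were higher in bitransgenic mice (56.8% of all genes), by 0.01 to 0.39, with a median of 0.11. The 16 other homeostatic microglia genes tested split in set 3, with 8 higher and 8 lower.

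**Figure D3:**
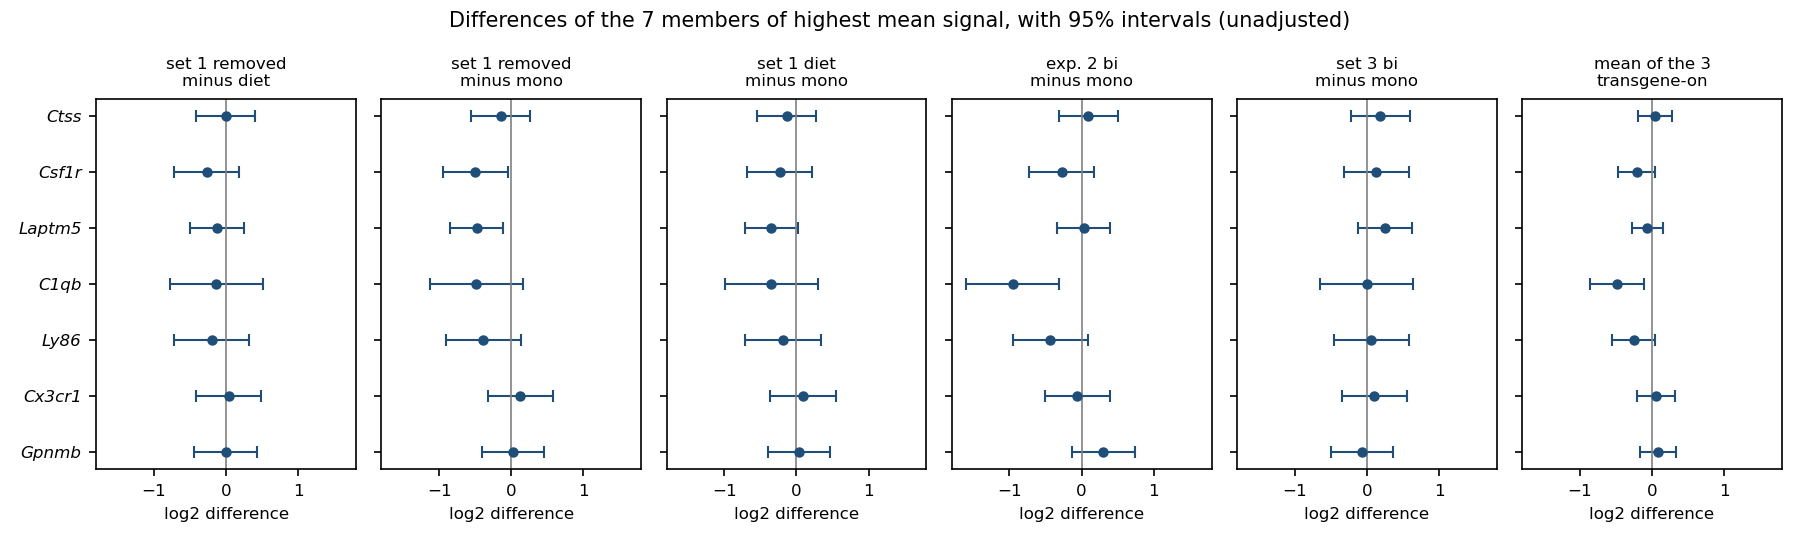
Log2 difference (horizontal axis, first-named group minus second) with its unadjusted 95% interval for the 7 members among the upper 40% of probe sets by mean, in the 5 comparisons and the mean of the 3 sets. Intervals for *Csf1r* and *Laptm5* lie below 0 in doxycycline removed minus monotransgenic, as does that of *C1qb* in experiment 2 and over the 3 sets, and none passed after adjustment.

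C1q is built from the products of *C1qa*, *C1qb* and *C1qc*, which lie side by side on chromosome 4. Of the 4 complement members, which include the C3a receptor *C3ar1*, all 4 were lower in bitransgenic mice of experiment 2, with a median of -0.57, and none passed. *C1qb* read 238, 50.7 and 181 in bitransgenic mice, against 304, 315 and 247 in monotransgenic mice. *C1qa* read 60.9, 4.28 and 37.3 in bitransgenic mice, against 40.4, 72.8 and 57.6 in monotransgenic mice.

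All bitransgenic arrays of experiment 2 were below the monotransgenic ones for *C1qb* (-0.96 ± 0.31, adjusted p = 0.200), while *C1qa* overlapped (-0.53 ± 0.31, adjusted p = 0.421). *C1qc* read 31.9, 12.8 and 25.6 in bitransgenic mice, against 25.0, 79.9 and 22.7 in monotransgenic mice, and also overlapped (-0.28 ± 0.30, adjusted p = 0.677). All 3 chains were lowest on bitransgenic replicate 2, the array with the highest actin ratio of all 21. Without that array *C1qb* differed by -0.42 (adjusted p = 0.503), *C1qa* by 0.02 and *C1qc* by -0.07, and the median of the 4 complement members was -0.25, with 3 lower and 1 higher. Without both arrays of high actin ratio the median was -0.31 and *C1qb* differed by -0.35. With the actin ratio as a covariate *C1qb* differed by -0.71 (adjusted p = 0.334) and the median was -0.41. The second probe set of *C1qb* read 257, 41.8 and 201 in bitransgenic mice, against 223, 229 and 151 in monotransgenic mice, with overlap and a difference of -0.44.

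*C3ar1* read 16.1, 13.1 and 10.4 in bitransgenic mice of experiment 2, against 34.8, 26.1 and 42.7 in monotransgenic mice. These groups did not overlap (-0.61 ± 0.22, adjusted p = 0.243), and without bitransgenic replicate 2 the difference was -0.63. The further probe sets of *C3ar1*, both under the filter, gave -0.16 and 0.115 in experiment 2. In set 1 *C3ar1* read 9.39, 31.5 and 13.95 on the removed arrays, against 23.2, 30.0 and 27.2 on the diet arrays, with overlap (-0.33 ± 0.22, adjusted p = 0.999). In set 3 it differed by 0.01.

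In set 1 the C1q chains did not share a sign. There *C1qb* read 159, 79.4 and 132 on the removed arrays and 161, 117 and 137 on the diet arrays, against 185, 145 and 212 on the monotransgenic arrays. *C1qa* read 28.1, 39.1 and 32.2 on the removed arrays and 36.2, 26.8 and 26.0 on the diet arrays, against 25.7, 18.3 and 28.1 on the monotransgenic arrays. *C1qc* read 24.3, 20.95 and 19.7 on the removed arrays and 24.1, 13.3 and 19.7 on the diet arrays, against 21.8, 26.3 and 9.05 on the monotransgenic arrays.

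For removed against monotransgenic these values gave -0.48 ± 0.31 for *C1qb*, 0.36 ± 0.31 for *C1qa* and 0.18 ± 0.30 for *C1qc* (adjusted p = 0.808, 0.894 and 0.957). In set 3 *C1qb* read 177, 192 and 205 in bitransgenic mice, against 186, 198 and 190 in monotransgenic mice (0.00 ± 0.31). *C1qa* there read 38.0, 46.2 and 41.3 in bitransgenic mice, against 26.8, 48.7 and 42.2 in monotransgenic mice. *C1qc* read 43.1, 23.5 and 38.3 in bitransgenic mice, against 37.9, 46.4 and 16.5 in monotransgenic mice, and both overlapped. Over the 3 sets *C1qb* differed by -0.48 ± 0.18 (adjusted p = 0.266), while *C1qa* and *C1qc* differed by -0.02 and 0.00.

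The 7 tested receptors and adaptors did not lean one way. *Fcer1g*, the signalling chain of immunoglobulin receptors, read 14.9, 21.9 and 29.1 on the removed arrays and 30.2, 15.8 and 11.5 on the diet arrays, against 15.4, 6.02 and 10.8 on the monotransgenic arrays of set 1. After normalization the removed arrays were all above the monotransgenic ones (0.56 ± 0.25, adjusted p = 0.583), and in deposited intensity 1 array overlapped. In experiment 2 it read 22.8, 5.86 and 27.4 in bitransgenic mice, against 17.8, 10.9 and 12.5 in monotransgenic mice. Set 3 had 16.8, 23.8 and 12.4 in bitransgenic mice, against 11.5, 14.9 and 10.6 in monotransgenic mice. The mean over the 3 sets was 0.38 ± 0.14 (adjusted p = 0.271), and *Fcer1g* was above the array median on only 4 of 21 arrays.

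*Tyrobp*, the adaptor DAP12 through which TREM2 signals, read 10.6, 10.1 and 58.4 on the removed arrays and 11.8, 26.1 and 19.3 on the diet arrays, against 59.3, 33.7 and 33.0 on the monotransgenic arrays. All diet arrays were below the monotransgenic ones (-0.76 ± 0.33, adjusted p = 1.00). The removed arrays held both the 2 lowest values of the set and 1 of the 2 highest (-0.60 ± 0.33, adjusted p = 0.735). *Tyrobp* overlapped in experiment 2 (0.28) and set 3 (0.13).

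*Axl*, a receptor kinase for the engulfment of dying cells, read 25.1, 27.3 and 20.4 in bitransgenic mice of set 3, against 15.6, 23.7 and 8.31 in monotransgenic mice. The groups overlapped (0.37 ± 0.21, adjusted p = 1.00). *Clec7a*, the glucan receptor Dectin-1 that rises in activated microglia, read 15.8, 31.0 and 11 on the removed arrays of set 1, against 11.7, 2.26 and 14.6 on the diet arrays. These overlapped too (0.50 ± 0.30, adjusted p = 0.999). The Fc receptor *Fcgr3* ranged from -0.36 to 0.17, *Ly86* from -0.43 to 0.06 and the Toll-like receptor *Tlr2* from -0.13 to 0.04 over the 5 comparisons of groups.

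Of the 6 tested lysosomal and secreted members, *Ctss* differed by -0.14 to 0.18 and *Lyz2*, the lysozyme of macrophages, by -0.11 to 0.28. *Cd68*, a lysosomal membrane protein of phagocytes, read 34.1, 19.3 and 25.2 on the removed arrays and 14.7, 18.4 and 17.8 on the diet arrays of set 1, against 15.7, 19.8 and 38.7 on the monotransgenic arrays. The removed arrays were all above the diet arrays (0.41 ± 0.21, adjusted p = 0.999), and the monotransgenic arrays spanned both. The difference of diet against monotransgenic was -0.29 ± 0.21 (adjusted p = 1.00).

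*Cd9*, a tetraspanin that rises in lipid-laden microglia and is made by other brain cells as well, read 7.40, 9.04 and 10.2 in bitransgenic mice of experiment 2, against 31.4, 32.1 and 37.3 in monotransgenic mice. The groups did not overlap, at -0.82 ± 0.30 on the log2 scale (adjusted p = 0.247), and without bitransgenic replicate 2 the difference was -0.83. Of 8 oligodendrocyte markers tested, 8 were also lower in the bitransgenic mice of experiment 2 (median -0.44), where 52.1% of all genes were higher. Of these 8, 3 had an unadjusted p under 0.05 (14.4% of all genes) and none was past the adjusted threshold. The 9 oligodendrocyte markers with a probe set summed to 2766 to 4113 in bitransgenic and 4020 to 5127 in monotransgenic mice, and their part in the *Cd9* and complement values was not tested. Without bitransgenic replicate 2, 7 of the 8 were lower (median -0.24). The lower *Cd9* values did not recur in set 3 (0.20) or in set 1. Set 1 had *Cd9* at 39.2, 28.2 and 29.1 on the removed arrays, against 26.8, 6.99 and 34.8 on the monotransgenic arrays.

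*Lgals3*, a galectin of phagocytes, read 39.2, 50.7 and 24.7 on the removed arrays of set 1, against 17.9, 10.1 and 41.1 on the diet arrays (0.60 ± 0.35, adjusted p = 0.999). In set 3 it read 10.1, 23.6 and 14 in bitransgenic mice, against 29.8, 25.3 and 43.9 in monotransgenic mice. The bitransgenic arrays there had lower deposited intensities, and after normalization the groups overlapped (-0.55 ± 0.35, adjusted p = 1.00). *Gpnmb*, a glycoprotein of lipid-laden macrophages, stayed between -0.07 and 0.30.

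The only chemokine tested, *Ccl4*, was lower in every comparison. It read 21.6, 8.30 and 19.8 on the removed arrays and 25.4, 35.3 and 19.6 on the diet arrays, against 28.1, 34.7 and 21.6 on the monotransgenic arrays of set 1. In experiment 2 it read 16.8, 26.1 and 28.2 in bitransgenic mice, against 31.9, 50.01 and 34.96 in monotransgenic mice. In set 3 it read 8.63, 22.8 and 18.3 in bitransgenic mice, against 39.6, 28.2 and 21.1 in monotransgenic mice. The groups overlapped after normalization in all of these, and the mean over the 3 sets was -0.37 ± 0.13 (adjusted p = 0.236).

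Across the 3 sets with the transgene on, whose comparisons share no arrays, 7 of 29 members kept the same sign, against 29.7% of all genes. *Clec7a*, *Fcer1g*, *Irf8*, *Lyz2* and *Ptprc* were higher in all 3, and *Ccl4* and *Tlr2* were lower in all 3. Several of these signs rest on values near 0. In set 1 (removed against monotransgenic) *Lyz2* differed by 0.02, *Irf8* by 0.07 and *Tlr2* by -0.05. In experiment 2 *Clec7a* differed by 0.04 and *Lyz2* by 0.05, and in set 3 *Irf8* by 0.04. The difference between sets was tested directly, and no member passed. At an unadjusted p under 0.05 there were 4, 2 and 3 of 29, in the order given next. The share of all genes at that unadjusted threshold was not taken for these differences, so no excess of members can be read from the counts. Called genes were 0% of all genes for experiment 2 minus set 1, for set 3 minus set 1 and for set 3 minus experiment 2. The member of lowest p was *Cd9* for experiment 2 minus set 1 (-1.26 ± 0.43, adjusted p = 0.494), *Laptm5* for set 3 minus set 1 (0.73 ± 0.25, adjusted p = 0.999) and *Axl* for set 3 minus experiment 2 (0.75 ± 0.30, adjusted p = 0.580).

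Single arrays carried many members at once. In set 3 the monotransgenic replicate 2 was the highest of its group for 20 of 29 members and replicate 3 the lowest for 16, where over all genes these arrays were highest and lowest for 36.2% and 30.1%. In set 1 the monotransgenic replicate 3 was highest for 17 members and replicate 2 lowest for 16 (35.1% and 32.8% of all genes). In experiment 2 the bitransgenic replicate 2 and the monotransgenic replicate 3 were each lowest for 17 (44.5% and 31.5% of all genes). The set 3 monotransgenic replicate 2 also had the lowest granule cell marker *C1ql2*, at 135, against 886 and 1132 on the other monotransgenic arrays. Its part in the member values was not tested. Leaving out the set 3 monotransgenic replicate 3 left 16 of 29 members higher in bitransgenic mice, with a median of 0.03, and leaving out replicate 2 left 26, with a median of 0.16.

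**Figure D4:**
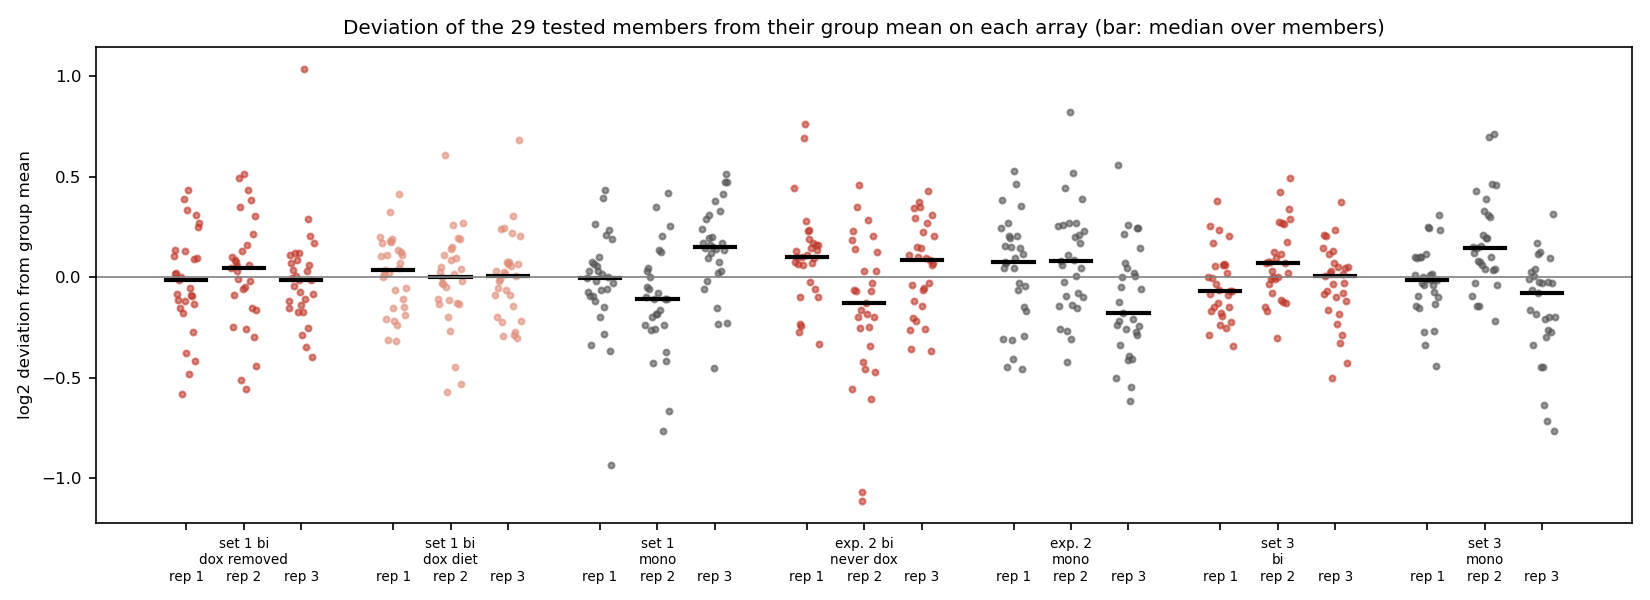
Log2 deviation of each of the 29 tested members from its group mean (vertical axis) on each of the 21 arrays, with a bar at the median over members. The medians run from -0.18 on the experiment 2 monotransgenic replicate 3 to 0.15 on the set 1 monotransgenic replicate 3, so members shift together on single arrays.

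5 members had further probe sets past the filter, 8 in all. These had the sign of the brightest probe set for 5 of 8 in removed against diet, in removed against monotransgenic and in diet against monotransgenic, 4 of 8 in experiment 2, 7 of 8 in set 3 and 6 of 8 over the 3 sets. All 4 *Laptm5* probe sets past the filter were lower in removed against monotransgenic (-0.35 to -0.76) and higher in set 3 (0.12 to 0.45). In diet against monotransgenic they did not agree, at -0.35 for the brightest and -0.01, 0.10 and -0.50 for the others. Of the 3 *Csf1r* probe sets, those of higher signal gave -0.50 and -0.47 in removed against monotransgenic and the dimmest gave 0.07.

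**Figure D5:**
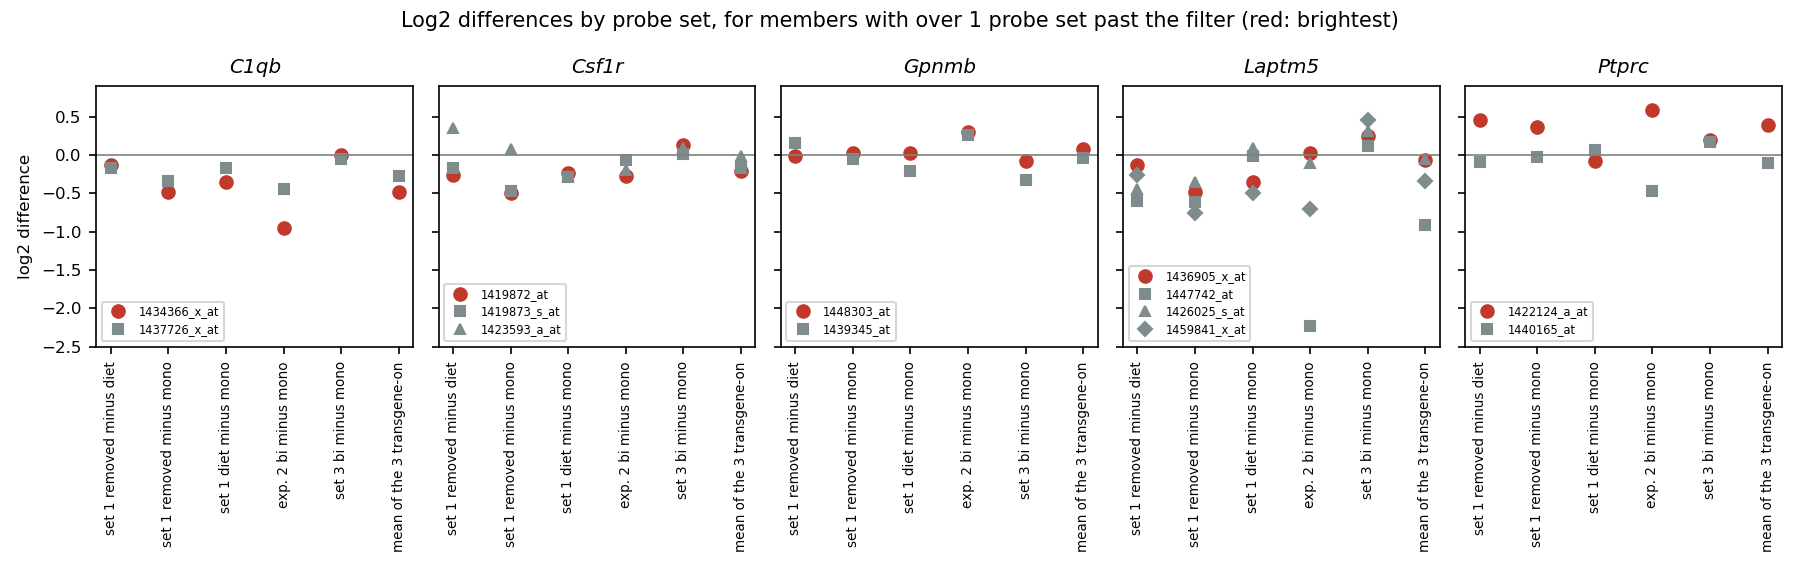
Log2 difference (vertical axis) by probe set in the 5 comparisons and for the mean of the 3 sets, for the 5 members with more than 1 probe set past the filter, with the brightest in red. The *Laptm5* probe sets agree in sign in removed minus monotransgenic and in set 3, 1 of them reaches -2.23 in experiment 2, and the *Ptprc* probe sets have opposite signs in experiment 2.

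Other genes of the same biology gave no call either. None of the 16 tested of 26 other homeostatic microglia genes passed in any of the 6 comparisons. At an unadjusted p under 0.05 there were 2 in removed against monotransgenic (7.85% of all genes), 2 in experiment 2 (14.4%) and 1 in diet against monotransgenic (3.85%). There were 0 in removed against diet (5.06%), in set 3 (4.19%) and over the 3 sets (11.8%). In removed against monotransgenic 12 of the 16 were lower and 4 higher (median -0.08), led by the fructose transporter *Slc2a5* (-0.54 ± 0.23, adjusted p = 0.544). In experiment 2, 11 were higher and 5 lower (median 0.18), and in set 3, 8 were higher and 8 lower. None of the 14 tested of 21 other activated microglia genes passed. At an unadjusted p under 0.05 there were 3 in experiment 2 (14.4% of all genes) and 0 in removed against diet (5.06%). There were 2 each in removed against monotransgenic (7.85%), diet against monotransgenic (3.85%), set 3 (4.19%) and over the 3 sets (11.8%). Among these 14 genes *Lpl*, the lipoprotein lipase, which neurons express as well, differed by -2.24 ± 0.47 over the 3 sets (adjusted p = 0.0619).

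Of 14 listed signals to microglia 9 were tested and none passed. An unadjusted p under 0.05 was found for 3 over the 3 sets (11.8% of all genes), 2 in removed against monotransgenic (7.85%) and 1 in removed against diet (5.06%). There were 0 in diet against monotransgenic (3.85%), experiment 2 (14.4%) and set 3 (4.19%). The lowest p over the 3 sets were those of *Tgfb2* (-0.49 ± 0.17, adjusted p = 0.221) and *Tgfb3* (0.48 ± 0.18, adjusted p = 0.259), which encode transforming growth factors.

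Markers of other cells that share these genes were low. Of the border macrophage markers 3 of 10 were past the filter (*F13a1*, *Pf4* and *Stab1*), of the monocyte and neutrophil markers 1 of 8 with a probe set (*Mmp9*), of the lymphocyte markers 2 of 9 (*Cd8a* and *Ms4a1*) and of the blood cell markers 0 of 2. None passed the test. At an unadjusted p under 0.05 there was 1 of the 3 border macrophage markers in diet against monotransgenic (3.85% of all genes). There were 0 in the other comparisons of groups and over the 3 sets. The 10 border macrophage markers summed to 104 to 127 on the removed arrays and 78.6 to 151 on the diet arrays, against 132 to 192 on the monotransgenic arrays of set 1. Their sum was 95.3 to 146 in bitransgenic and 149 to 164 in monotransgenic mice of experiment 2, and 110 to 136 in bitransgenic and 95.9 to 129 in monotransgenic mice of set 3. The sums were lower on the removed arrays of set 1 and in bitransgenic mice of experiment 2, where *Csf1r* and *C1qb* also leaned lower. Diet and monotransgenic sums overlapped. Most markers in the sums were under the filter. Of the 3 tested, all 3 were lower in removed against monotransgenic (median -0.25), and 2 were higher and 1 lower in experiment 2 (median 0.03). In diet against monotransgenic 2 were lower and 1 higher (median -0.26), and in set 3 all 3 were higher (median 0.27). Their part in the *Csf1r* and *C1qb* differences was not tested. The monocyte and neutrophil markers summed to 63.9 to 85.5 on the removed arrays, 66.0 to 108 on the diet arrays and 64.2 to 80.7 on the monotransgenic arrays of set 1.

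Among the marker lists of other tissue cells, none of 10 granule cell, 9 astrocyte, 8 oligodendrocyte, 5 endothelial or 4 choroid plexus genes tested passed in any of the 6 comparisons. At an unadjusted p under 0.05 there were 6 of 10 granule cell genes over the 3 sets (against 11.8% of all genes), 5 in removed against monotransgenic (7.85%), 4 in diet against monotransgenic (3.85%) and 5 in set 3 (4.19%). Only 1 was found in removed against diet (5.06%) and 0 in experiment 2 (14.4%), where 6 were higher and 4 lower. The astrocyte list had at most 1 such gene in any of the 6 comparisons, and the endothelial list 0. The choroid plexus list had at most 2, in diet against monotransgenic (3.85% of all genes). Granule cell markers were lower for 8 of 10 in removed against monotransgenic (median -0.33) and for 7 of 10 in diet against monotransgenic (median -0.22). Their sum was 15220 to 18520 on the removed arrays and 16130 to 17940 on the diet arrays, against 19340 to 22540 on the monotransgenic arrays of set 1. Of 4 tested meningeal and fibroblast genes, *Ogn* fell in removed against monotransgenic (-4.16 ± 0.74, adjusted p = 0.0322), in diet against monotransgenic (-4.37 ± 0.74, adjusted p = 0.0378) and over the 3 sets (-2.61 ± 0.43, adjusted p = 0.0165), and *Lum* fell in removed against monotransgenic (-1.48 ± 0.28, adjusted p = 0.0467). The 7 meningeal and fibroblast markers summed to 93.2 to 125 on the removed arrays, 104 to 135 on the diet arrays and 736 to 894 on the monotransgenic arrays of set 1. The lower *Laptm5*, *Csf1r* and *P2ry12* values of set 1 were thus on the arrays with lower meningeal and granule cell markers. In set 3, 8 of 10 granule cell markers (median -0.26) and all 4 meningeal and fibroblast genes were also lower in bitransgenic mice. There *Laptm5* (0.25), *Csf1r* (0.13) and *P2ry12* (0.39) were higher, without a call. The part of the tissue taken in the member values was not tested.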

How the data were processed

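Total RNA of the mouse dentate gyrus had been measured on 21 Affymetrix mouse arrays. The deposited values are a linear intensity for each of 45101 probe sets. Each array's mean is 150 once the lowest and highest 2% are left out, which the values show to be the authors' scaling. The tool, the annotation and any detection calls behind them are not given in the sources used here.

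The members and all gene lists were chosen with earlier results of these data known. Of the probe sets, 34945 had 1 symbol, 932 several, 9160 none and 64 were controls. Symbols were updated by Entrez ID for 34741. Values were taken as log2(value + 16) and quantile normalized (array medians 5.19 to 5.49 before), and 27022 probe sets (the upper 60%, from a mean log2 of 4.90) stayed in. The brightest probe set by mean stood for its gene.

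One limma fit (limma 3.58.1, R 4.3.3) had a coefficient per group, a variance trend and 14 residual degrees of freedom. Tests were two-sided with Benjamini-Hochberg adjustment over 12499 genes, at a threshold of 0.05. Each log2 difference is given with its standard error. In each of the 6 comparisons the 6 members of lowest p were named with their arrays, the C1q chains always, and up to 2 genes of each other list. Those lists were 26 other homeostatic and 21 other activated microglia genes, 14 signals to microglia, and markers of border macrophages, monocytes and neutrophils, lymphocytes, granule cells, astrocytes, oligodendrocytes, endothelium, meninges, choroid plexus and blood. Replicates are numbered in accession order. Promoter windows are from RefSeq, and figures were drawn with matplotlib 3.10.9. The alternatives were other pseudocounts, filters, normalizations, probe set rules, array weights, variance models, the actin ratio as a covariate, each set alone, and each array left out. The fit on the set 3 title prefix pairs, and the experiment 2 lists without arrays of high actin ratio or with that ratio as a covariate, were added after seeing the data. The number of arrays limits the precision.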

Additional observations from a re-analysis of the deposited data

How the results depend on the processing

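Over 15 other settings and 21 fits without 1 array, no member passed in 191 of 197 counts. Of 712 values of the 36 named differences, 705 kept their sign and side of the threshold, 0 reversed and 7 passed. The 36 were picked for their low p in these same arrays, most of which each alternative reuses. A kept sign is therefore no independent check. In removed against monotransgenic, 1 member was called with the arrays of set 1 alone (*Laptm5*, -0.48, adjusted p = 0.0498, beside 329 calls over all genes). In experiment 2, 1 was called with array weights (*Irf8*, 0.80, adjusted p = 0.03002, beside 895 calls over all genes). Without 1 array 0 to 1 was called, the call being *C1qb* without bitransgenic replicate 1 (-1.30, adjusted p = 0.0349, beside 358 calls over all genes). Over the 3 sets, 2 were called with array weights (*Fcer1g*, 0.55, adjusted p = 0.00886, and *Ptprc*, 0.40, adjusted p = 0.0218), beside 1370 calls over all genes. Without the 2 arrays of highest actin ratio 1 was called (*Fcer1g*, 0.51, adjusted p = 0.0457, beside 416 calls over all genes). Without 1 array 0 to 1 was called, the call being *Ptprc* without set 3 monotransgenic replicate 2 (0.46, adjusted p = 0.0273, beside 316 calls over all genes). Over all alternatives the adjusted p ran from 0.0498 to 0.809 for *Laptm5*, from 0.0349 to 0.936 for *C1qb* and from 0.03002 to 0.936 for *Irf8* in those comparisons, and over the 3 sets from 0.0218 to 0.646 for *Ptprc* and from 0.00886 to 0.694 for *Fcer1g*. With the upper 40% of probe sets, which kept 7 members, the median was -0.13 in removed against diet, -0.39 in removed against monotransgenic and -0.19 in diet against monotransgenic. On the deposited scale without quantile normalization it was -0.25 in experiment 2. Without 1 array it ran from -0.18 to 0.0372 in removed against monotransgenic, lowest without monotransgenic replicate 2, and from -0.097 to 0.037 in diet against monotransgenic, where it was above 0 without diet replicate 2 or monotransgenic replicate 3. The cause of these shifts was not tested. The other 117 of 124 medians moved by less than 0.11, the spread between replicates of the mean over members. No paired analysis was possible because replicate numbers are in accession order and pair no samples, except on the title prefixes of set 3. There the planned prefix factor put the 2 unshared prefixes on 1 level, which by construction leaves the differences as they were. A paired fit with each prefix on its own level, chosen after seeing the data, called 0 members in set 3, with a median of 0.06 and 20 of 29 higher. Most members read near the array median, which limits what their differences can show.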

Other observations

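A further probe set of *Laptm5* read 2785 on the experiment 2 monotransgenic replicate 3 and 36.6 to 563 on the other 20 arrays, while the *Laptm5* probe set used for the tests read 238 on that array. *C1qb* read 247 to 315 on the monotransgenic arrays of experiment 2, above the 145 to 212 of set 1 and the 186 to 198 of set 3. Experiment 2 differs from both other sets in *Xist* and *Eif2s3y*, so sex cannot be told apart from set in this comparison.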
